A study of Mus musculus with 32 samples.

Results

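The 6 genes described here belong to the liver's response to fasting: Ppara, Creb3l3, Pdk4, Vnn1, Fgf21 and Angptl4. They were taken by name, as regulators and secreted proteins tied to the nuclear receptor PPARA, with earlier results of these data known. They are 6 of the 22180 genes measured. Each had 1 probe set on the array, numbered 17313862 (Ppara), 17243183 (Creb3l3), 17464654 (Pdk4), 17232162 (Vnn1), 17490899 (Fgf21) and 17343628 (Angptl4).

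The study asked how a single dose of dietary fat acts on the liver and its insulin response. Liver RNA was measured on 32 arrays, 1 for each male wild-type C57BL/6NTac mouse aged 14 weeks and fasted for 10 h. By gavage they were given either palm oil, which is high in saturated fat, at 2 g/kg or, as controls, water. There were 9 palm oil clamped, 7 control clamped, 9 palm oil basal and 7 control basal mice. Basal livers were taken 6 h after the gavage under isoflurane. Clamped mice had a jugular catheter placed under ketamine and xylazine 6 to 7 days earlier. From 6 h after the gavage they received a tritiated glucose tracer for 110 min and then insulin at 15 pmol/kg/min with glucose held steady (a hyperinsulinemic-euglycemic clamp), and they were killed with ketamine and xylazine. Clamped and basal livers therefore differ in surgery, anaesthetic, tracer and time as well as in insulin, and these cannot be told apart. The animal numbers run from 15 to 32 in clamped and from 33 to 52 in basal mice, so that the order of the animals cannot be told apart from the clamp either.

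PPARA is a nuclear receptor that fatty acids activate in the fasted liver. With its partner RXR it binds response elements near genes of fatty acid oxidation, ketone body formation and lipid transport. Insulin after a meal normally turns down much of this program. CREB3L3 (also called CREBH) is a liver transcription factor held in the endoplasmic reticulum membrane that works together with PPARA on fasting genes. PDK4 phosphorylates and shuts down the pyruvate dehydrogenase complex, which spares glucose when fat is burned. VNN1 is a pantetheinase that releases the coenzyme A precursor pantothenate. FGF21 and ANGPTL4 are secreted: the first is a fasting hormone, the second an inhibitor of lipoprotein lipase.

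The DNA just before the start site is shown for the 4 of 6 genes matched in the promoter table, Ppara, Pdk4, Creb3l3 and Fgf21, since Pdk4 moved opposite to Ppara and Creb3l3 in the clamp. The sequences are from RefSeq, build GRCm38.p6, and each gives the 250 bases upstream of the start, 5′ to 3′ on the gene's strand. Creb3l3 has 2 start sites. Angptl4 and Vnn1 were not matched. Capitals mark the motifs found.
Ppara, chr15:85735526-85735775, plus strand: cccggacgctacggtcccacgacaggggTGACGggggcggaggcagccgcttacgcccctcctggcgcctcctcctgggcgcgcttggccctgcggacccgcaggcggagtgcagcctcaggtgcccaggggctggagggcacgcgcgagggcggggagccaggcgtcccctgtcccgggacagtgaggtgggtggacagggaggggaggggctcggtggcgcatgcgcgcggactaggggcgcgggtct
Pdk4, chr6:5496279-5496528, minus strand: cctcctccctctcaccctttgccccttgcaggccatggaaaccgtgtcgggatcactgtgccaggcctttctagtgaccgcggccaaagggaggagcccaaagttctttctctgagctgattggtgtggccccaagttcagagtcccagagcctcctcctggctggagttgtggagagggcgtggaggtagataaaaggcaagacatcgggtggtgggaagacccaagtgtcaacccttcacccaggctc
Creb3l3, first entry, chr10:81092592-81092841, minus strand: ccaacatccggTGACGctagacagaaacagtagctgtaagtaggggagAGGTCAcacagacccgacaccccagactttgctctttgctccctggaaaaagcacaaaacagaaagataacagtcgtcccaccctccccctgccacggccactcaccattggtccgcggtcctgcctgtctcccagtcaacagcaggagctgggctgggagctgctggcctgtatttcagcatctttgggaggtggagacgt
Creb3l3, second entry, chr10:81098873-81099122, minus strand: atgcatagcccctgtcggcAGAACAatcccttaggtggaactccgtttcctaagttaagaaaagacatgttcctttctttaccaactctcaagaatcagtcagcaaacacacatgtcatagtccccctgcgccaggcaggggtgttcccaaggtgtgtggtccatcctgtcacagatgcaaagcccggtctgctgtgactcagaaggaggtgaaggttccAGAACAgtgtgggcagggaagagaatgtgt
Fgf21, chr7:45615491-45615740, minus strand: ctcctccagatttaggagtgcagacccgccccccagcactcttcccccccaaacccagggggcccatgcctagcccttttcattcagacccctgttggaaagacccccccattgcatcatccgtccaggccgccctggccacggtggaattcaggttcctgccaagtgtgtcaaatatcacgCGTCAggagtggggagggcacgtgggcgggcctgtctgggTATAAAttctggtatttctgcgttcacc

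The motifs were searched on both strands. They were the nuclear receptor half-site AGGTCA, the direct repeat AGGTCANAGGTCA that contains it and is the form PPARA with RXR binds, the FOXO site GTAAACA, the cyclic AMP response half-site TGACG, the glucocorticoid receptor half-site TGTTCT and the TATAAA of the TATA box. The half-site AGGTCA stood once, at position -202 counted from the first Creb3l3 start, and 14.0% of the 32851 promoters in the table hold it within their 250 bases. The direct repeat was in none of the 5 sequences and is in 0.0335% of all promoters. TGACG (17.8% of promoters) stood at -222 of Ppara, at -239 of the first Creb3l3 start and, on the minus strand, at -68 of Fgf21. The second Creb3l3 start had TGTTCT (16.1% of promoters) on the minus strand at -231 and -30. TATAAA (12.4% of promoters) stood at -28 of Fgf21 alone among the 5, and GTAAACA (3.2%) in none. The Pdk4 sequence held 0 matches. Only exact letters within the 250 bases were sought, so a site of other spelling or farther away would be missed. The Ppara sequence was rich in G and C (76.4%), against 58.8% for Pdk4, 59.6% for Fgf21, and 56.8% and 50.8% for the first and second Creb3l3 starts.

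Some features of the arrays bear on the genes below. Hepatocyte markers (7 of 8 measured) averaged 10.25 to 10.55 log2 units on every array, as the tissue label has it. Pancreatic acinar markers (9 of 12 measured) averaged between 1.81 and 7.43 on palm oil clamped, 1.47 and 8.58 on control clamped, 1.80 and 9.36 on palm oil basal and 2.41 and 8.81 on control basal arrays. They exceeded 6 on 2 of 9 palm oil clamped, 1 of 7 control clamped, 5 of 9 palm oil basal and 4 of 7 control basal arrays. Among basal mice, the 7 with an animal number of at least 44 (3 palm oil, 4 control) had narrower interquartile ranges, 2.44 to 2.54, against 2.72 to 2.96 on the other 9 basal arrays. What the animal numbers stand for beyond the animal is not given in the labels. Of the neutrophil markers 5 of 9 rose in the clamp in both diets, with a list median of 0.87 in palm oil and 1.03 in control mice. Of the 7 Kupffer cell markers (list median 0.11 in palm oil, 0.10 in control mice), Marco (1.65 in palm oil, 1.62 in control mice) and Timd4 (0.56 and 0.77) rose in both diets. Of the 7 sinusoidal endothelial markers (list median 0.12 and -0.01), Lyve1 rose (1.29 and 1.35) and Kdr fell (-0.78 and -1.09). The acinar level entered some of the fits below. The part of the other cell types in the results was not tested.

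**Figure D1:**
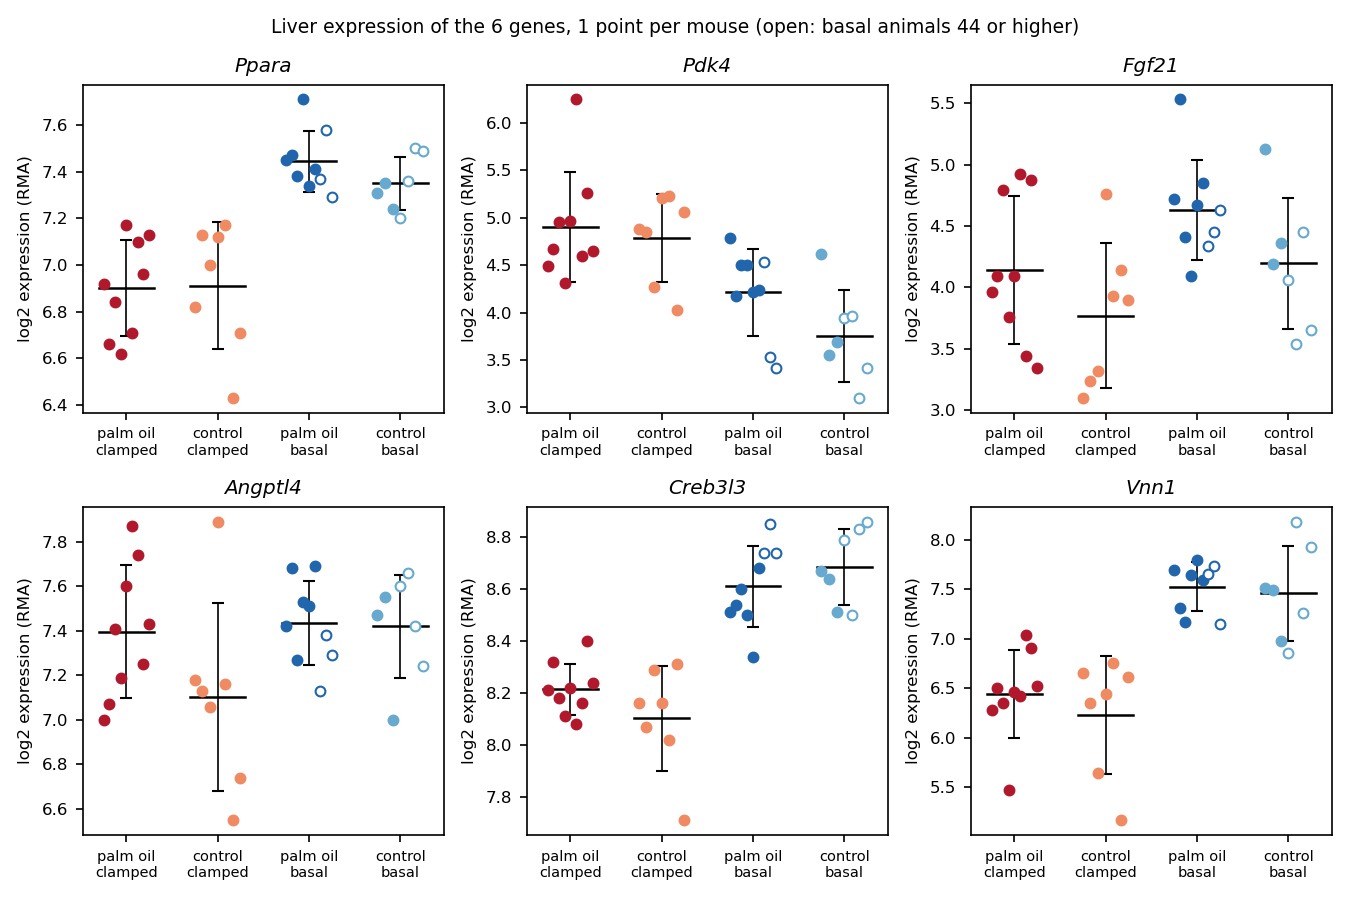
Log2 expression of each gene in each of the 32 livers (points), with the group mean (line) and SD (bars). Open points are basal animals numbered 44 or higher. Ppara, Creb3l3 and Vnn1 sit lower and Pdk4 sits higher in the clamped groups, while palm oil and control mice of the same state overlap for every gene.

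The first comparison asked how the genes differ between clamped and basal livers. In both diets Ppara, Creb3l3 and Vnn1 fell and Pdk4 rose, so that 4 of 6 genes passed the limma test at an adjusted p under 0.05. Of all genes tested, 7.57% passed in palm oil mice (3.76% higher and 3.80% lower) and 8.75% in control mice (4.66% higher and 4.09% lower). These shares include many genes of low level, while the means of the 6 exceeded those of 72.1% to 97.6% of genes. Since the 6 were chosen with earlier results of these data known, setting 4 of 6 beside these shares is no independent test. Among the 11090 genes of at least median level, fitted alone, more passed, 1957 in palm oil and 2307 in control mice. The sample sets of the palm oil and the control comparison share no mouse. Fgf21 and Angptl4 did not pass in either diet. The median difference of the 6 genes was -0.44 in palm oil and -0.43 in control mice, against -0.02 over all genes in each. Liver is a mixed tissue, and fewer cells of a type cannot be told apart from less RNA per cell.

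**Figure D2:**
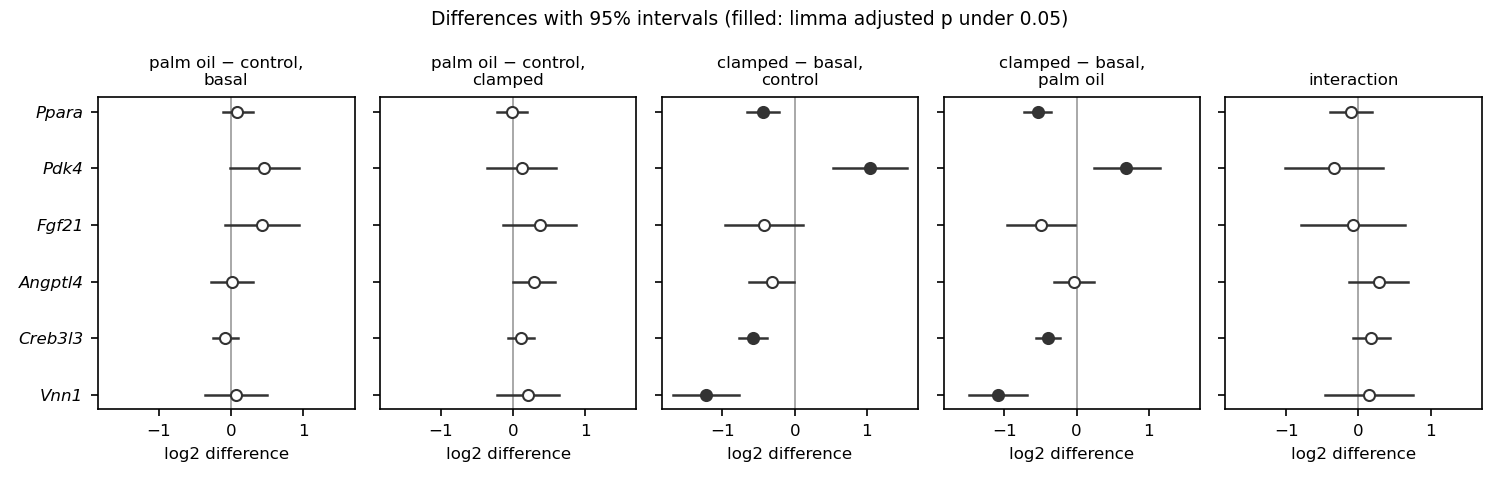
Log2 difference of each gene (points) with its 95% interval (lines) in the 4 comparisons and the interaction, in which filled points passed an adjusted p of 0.05. The filled points are Ppara, Pdk4, Creb3l3 and Vnn1 in both clamped minus basal comparisons, and the palm oil comparisons and the interaction have none.

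Ppara, the receptor itself, measured between 6.62 and 7.17 log2 units in palm oil clamped livers (median 6.92) and between 7.29 and 7.71 in palm oil basal livers (median 7.41). In control mice it lay between 6.43 and 7.17 in clamped livers (median 7.00) and between 7.20 and 7.50 in basal livers (median 7.35). Every clamped liver was below every basal liver of its diet. Such a full separation, in either direction, was found for 1.45% of all genes in palm oil and 2.55% in control mice. The difference was -0.54 ± 0.10 (log2, SE, n = 9 and 9), a 1.45-fold lower array value, in palm oil mice (limma adjusted p = 1.70e-04) and -0.44 ± 0.11 (n = 7 and 7), 1.35-fold lower, in control mice (limma adjusted p = 0.00681). The exact two-sided permutation test gave p = 4.11e-05 in palm oil and p = 5.83e-04 in control mice, each the smallest p these group sizes allow. In control mice the call was lost without the 7 basal arrays of animals 44 and higher (-0.39, limma adjusted p = 0.145) and without the arrays over 6 units of acinar markers (-0.37, limma adjusted p = 0.212). Each of these fits drops 4 of 7 control basal livers, and the second also 1 of 7 control clamped livers. Fitted over both diets, animals 44 and higher differed from other basal mice by 0.01 ± 0.10 (SE) in Ppara. Each log2 unit of acinar level went with 0.01 ± 0.02. In palm oil mice the clamp difference was -0.56 without those 7 arrays. Against the basal animals 44 and higher alone it was -0.51 in palm oil and -0.47 in control mice. Ordered by mean, the groups ran 7.44 ± 0.13 (palm oil basal, SD), 7.35 ± 0.11 (control basal), 6.91 ± 0.27 (control clamped) and 6.90 ± 0.21 (palm oil clamped). Neither the 2 basal nor the 2 clamped groups differed beyond their spread.

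Creb3l3, PPARA's partner on fasting genes, was the least variable of the 6 within groups, with an SD of 0.15 that exceeded that of 21.4% of genes of like level. It measured 8.08 to 8.40 in palm oil clamped livers (median 8.21) and 8.34 to 8.85 in palm oil basal livers (median 8.60). It measured 7.71 to 8.31 in control clamped livers (median 8.16) and 8.50 to 8.86 in control basal livers (median 8.67). All 7 control clamped livers, and 8 of 9 palm oil clamped livers, were below every basal liver of their diet. The difference was -0.40 ± 0.08 (1.32-fold lower, limma adjusted p = 0.00129) in palm oil and -0.58 ± 0.09 (1.50-fold lower, limma adjusted p = 5.03e-05) in control mice. The exact two-sided permutation p was 8.23e-05 in palm oil and 5.83e-04 in control mice. In palm oil mice it lost the call without the arrays over 6 units of acinar markers (-0.32, limma adjusted p = 0.134). That fit drops 5 of 9 palm oil basal and 2 of 9 palm oil clamped livers. Each log2 unit of acinar level went with 0.02 ± 0.01 in Creb3l3. Against the basal animals 44 and higher alone the differences were larger, -0.56 in palm oil and -0.64 in control mice, and without those animals they were -0.31 and -0.50.

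Vnn1, the pantetheinase, fell furthest. It measured 5.47 to 7.04 in palm oil clamped livers (median 6.46) and 7.15 to 7.79 in palm oil basal livers (median 7.64). In control mice it measured 5.17 to 6.75 in clamped livers (median 6.44) and 6.86 to 8.18 in basal livers (median 7.49). Again every clamped liver was below every basal liver of its diet. The difference was -1.09 ± 0.20 (2.12-fold lower, limma adjusted p = 2.45e-04) in palm oil and -1.23 ± 0.22 (2.34-fold lower, limma adjusted p = 2.64e-04) in control mice. The permutation p was again the smallest possible. In control mice the call was lost without the arrays over 6 units of acinar markers (-1.01, limma adjusted p = 0.0786), and in palm oil mice it held there (-1.11, limma adjusted p = 0.0314). That fit drops 4 of 7 control basal and 5 of 9 palm oil basal livers, among others. Each log2 unit of acinar level went with -0.01 ± 0.03 in Vnn1. Without the basal animals 44 and higher the difference was -1.10 in both diets, and against those animals alone it was -1.07 in palm oil and -1.33 in control mice. Its within-group SD of 0.44 exceeded that of 93.9% of genes of like level.

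Pdk4, the brake on pyruvate dehydrogenase, was the only one of the 6 to rise. It measured 4.31 to 6.25 in palm oil clamped livers (median 4.67) and 3.42 to 4.79 in palm oil basal livers (median 4.24). It measured 4.03 to 5.23 in control clamped livers (median 4.88) and 3.10 to 4.62 in control basal livers (median 3.69). The groups overlapped: 4 of 9 palm oil clamped and 5 of 7 control clamped livers exceeded every basal liver of their diet. The difference was 0.69 ± 0.22 (1.62-fold, limma adjusted p = 0.0478) in palm oil and 1.04 ± 0.25 (2.05-fold, limma adjusted p = 0.00580) in control mice. The exact two-sided permutation p was 0.00555 in palm oil and 0.00350 in control mice.

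Of the 4 genes called in both diets, Pdk4 lost its call in the most alternatives. In palm oil mice its limma adjusted p of 0.0478 was close to the threshold, so a lost call there need not mean a changed difference. Among the basal livers, Pdk4 averaged 3.82 in the 3 palm oil animals numbered 44 or higher and 4.41 in the 6 others. In the control basal mice it averaged 3.60 in the 4 animals numbered 44 or higher and 3.95 in the 3 others. Fitted over both diets, animals 44 and higher differed from other basal mice by -0.48 ± 0.23 (limma adjusted p = 0.175), and 13.4% of all genes passed for that term. Without these 7 arrays the clamp difference of Pdk4 was 0.50 in palm oil (limma adjusted p = 0.266) and 0.84 in control mice (limma adjusted p = 0.136). Against these arrays alone it was 1.08 (limma adjusted p = 0.0315) and 1.19 (limma adjusted p = 0.0113). Each log2 unit of acinar level went with -0.09 ± 0.03 in Pdk4 (limma adjusted p = 0.574, with 0.180% of genes passing). With that level as a term, the clamp difference was 0.46 in palm oil (limma adjusted p = 0.298) and 0.77 in control mice (limma adjusted p = 0.0609). The direction stayed positive in the 34 alternatives in palm oil and the 30 in control mice. Some of these, such as the robust prior or the compared groups alone, change only the test, so that the direction could not change in them. The call was lost in 16 alternatives in palm oil and 4 in control mice. In control mice those include the animals 44 and higher as a block (0.77, limma adjusted p = 0.0927) and the fit without the arrays over 6 units of acinar markers (1.01, limma adjusted p = 0.0627). Leaving out palm oil clamped replicate 6, at 6.25 the highest liver, gave 0.53 (limma adjusted p = 0.122).

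**Figure D3:**
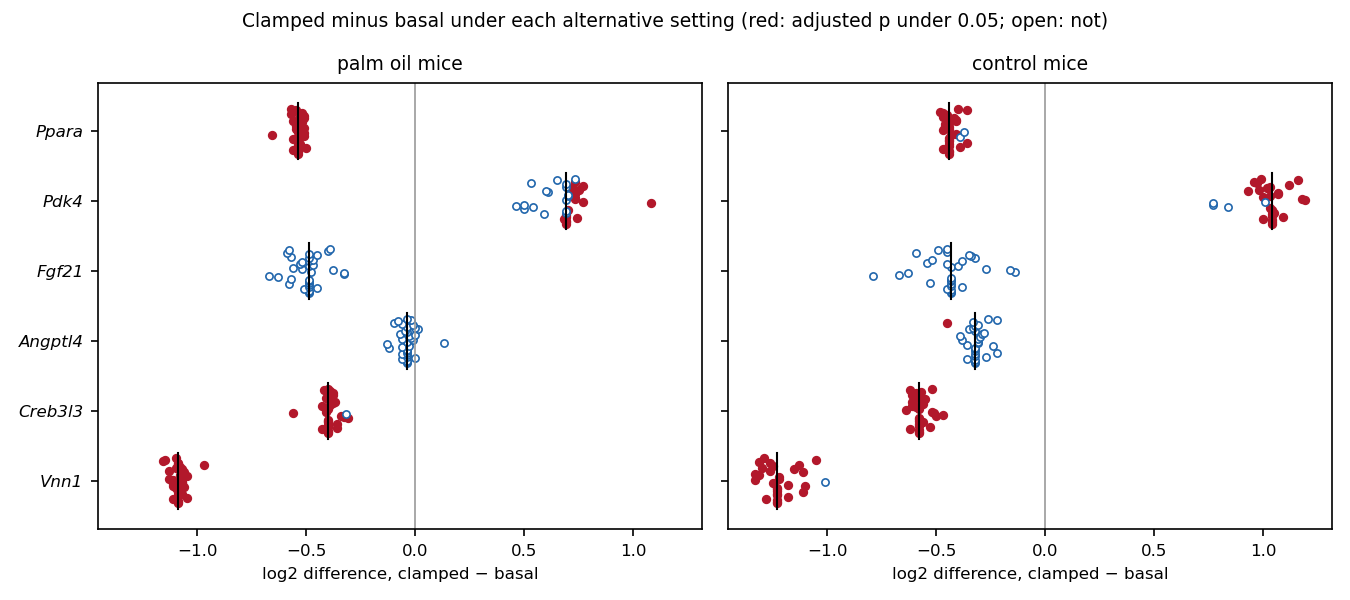
Clamped minus basal log2 difference of each gene in the main fit (black bar) and in each alternative fit (points), with red points past an adjusted p of 0.05 and open points not. Vnn1 and Ppara stay below 0 and Pdk4 above 0 throughout, Angptl4 in palm oil mice crosses 0, and Pdk4 in palm oil mice lies between 0.46 and 1.08.

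Fgf21, the fasting hormone, was lower on average in clamped livers without passing the test. It measured 3.34 to 4.92 in palm oil clamped livers (median 4.09) and 4.09 to 5.53 in palm oil basal livers (median 4.63). It measured 3.10 to 4.76 in control clamped livers (median 3.90) and 3.54 to 5.13 in control basal livers (median 4.19). The ranges overlapped in both diets, with 4 of 9 palm oil clamped and 3 of 7 control clamped livers below every basal liver. The difference was -0.49 ± 0.23, with a 95% interval of -0.97 to -0.02 (limma adjusted p = 0.246), in palm oil mice. In control mice it was -0.43 ± 0.27, with a 95% interval of -0.97 to 0.11 (limma adjusted p = 0.386). The exact two-sided permutation p was 0.0589 in palm oil and 0.179 in control mice. The size moved with the basal arrays in control mice, -0.79 without the animals numbered 44 or higher and -0.16 against those animals alone. The gene's SD within groups was 0.53, above that of 93.6% of genes of like level.

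Angptl4, the lipoprotein lipase inhibitor, lay between 7.00 and 7.87 in palm oil clamped livers (median 7.41) and between 7.13 and 7.69 in palm oil basal livers (median 7.42). It lay between 6.55 and 7.89 in control clamped livers (median 7.13) and between 7.00 and 7.66 in control basal livers (median 7.47). The clamped livers spread wider than the basal ones and reached past them on both sides in each diet. The difference was -0.04 ± 0.13 (limma adjusted p = 0.930) in palm oil and -0.32 ± 0.15, with a 95% interval of -0.63 to -0.01 (limma adjusted p = 0.227), in control mice. In palm oil mice it was -0.12 without the basal animals 44 and higher and 0.13 against those animals alone. In control mice it passed when control clamped replicate 4, at 7.89 the highest liver, was left out (-0.45, limma adjusted p = 0.0363).

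The next comparison asked whether palm oil changed the genes. None of the 6 passed in basal or in clamped mice, and 0% of all genes passed in either state. No gene of the 6 separated the diets fully, and of all genes 0.0135% did in basal and 0.00902% in clamped mice. At an unadjusted p under 0.05, 1134 genes lay below it in basal and 781 in clamped mice. In basal mice Pdk4 averaged 4.21 ± 0.46 in palm oil and 3.75 ± 0.48 in control livers (SD, n = 9 and 7). Its difference of 0.46 ± 0.24 (SE) had a 95% interval of -0.02 to 0.94 (limma adjusted p = 0.975, exact two-sided permutation p = 0.0746). Within the animals numbered 44 or higher it was 0.22, and within the other basal mice 0.45. Fgf21 averaged 4.63 ± 0.41 in palm oil basal and 4.20 ± 0.53 in control basal livers, a difference of 0.43 with an interval of -0.08 to 0.94. Within the animals numbered 44 or higher it was 0.55, and within the others 0.15. The intervals of both leave room for close to a 2-fold rise and for no difference. Ppara (0.09 ± 0.10), Vnn1 (0.07 ± 0.21), Angptl4 (0.01 ± 0.14) and Creb3l3 (-0.08 ± 0.09) lay within 1 standard error of 0.

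In clamped mice Angptl4 averaged 7.40 ± 0.30 in palm oil and 7.10 ± 0.42 in control livers. Its difference of 0.29 ± 0.14 (95% interval 0.00 to 0.59) had an unadjusted limma p of 0.0496 and a limma adjusted p = 1.00. The exact two-sided permutation p was 0.127. Fgf21 averaged 4.14 ± 0.60 in palm oil clamped and 3.77 ± 0.59 in control clamped livers, a difference of 0.37 with an interval of -0.14 to 0.88. Pdk4 differed by 0.12 ± 0.24, Vnn1 by 0.21 ± 0.21, Creb3l3 by 0.11 ± 0.09 and Ppara by -0.01 ± 0.10. Fgf21, Pdk4, Vnn1 and Angptl4 were thus on average higher with palm oil in both states, in different mice, without passing in either. In each state 5 of the 6 genes lay above 0, as did 11319 of all 22180 genes in basal and 11186 in clamped mice.

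The interaction asked whether the clamp difference depended on the diet. None of the 6 genes passed, and 0% of all genes did (773 at an unadjusted p under 0.05). The estimates were -0.34 ± 0.33 for Pdk4, -0.10 ± 0.14 for Ppara, -0.07 ± 0.35 for Fgf21, 0.14 ± 0.30 for Vnn1, 0.18 ± 0.12 for Creb3l3 and 0.28 ± 0.20 for Angptl4, in palm oil minus control mice. The smaller rise of Pdk4 and the smaller fall of Creb3l3 in palm oil mice are thus not shown to differ from those in control mice.

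The genes around the 6 were followed in lists by role. Of 22 other PPARA targets measured, mostly enzymes of fatty acid oxidation, 9 fell and 0 rose in the palm oil clamp, and 11 fell and 0 rose in the control clamp. Their median was -0.26 in palm oil and -0.34 in control mice. Acyl-CoA thioesterases were among those that fell: the differences were -1.76 in palm oil and -1.64 in control mice for Acot4, -1.98 and -1.57 for Acot3, and -0.85 and -1.50 for Acot1. Among 12 vanin and coenzyme A genes, 3 fell in palm oil and 6 in control mice, with 0 rising in either. Slc25a42, the mitochondrial coenzyme A carrier, fell (-0.70 in palm oil, -0.91 in control mice), as did Nudt7, a peroxisomal coenzyme A hydrolase (-0.60 and -0.75). Vnn3, another vanin, fell by 0.76 in control mice and differed by -0.34 in palm oil mice (limma adjusted p = 0.246).

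PPARA's partners and co-regulators moved both ways. Of 19 measured, 4 rose and 3 fell in the palm oil clamp, and 4 rose and 1 fell in the control clamp. Ppargc1b, a coactivator of oxidative genes, fell (-0.77 in palm oil, -0.91 in control mice). Sirt1, a NAD-dependent deacetylase, rose by 0.81 and by 0.80, and Crebbp, an acetyltransferase coactivator, by 0.25 and by 0.33. Around Pdk4, 0 of 12 genes of pyruvate dehydrogenase control passed in control mice. In palm oil mice 2 fell, the phosphatase gene Pdp2 (-0.82), whose product opposes the kinases, and Dlat (-0.41), a subunit of the complex. In control mice Pdp2 differed by -0.63 (limma adjusted p = 0.0752) and Dlat by -0.42 (limma adjusted p = 0.0622). These 2 genes, and the kinases below, were chosen after their values were seen. Pdk1 differed by -0.42 ± 0.28 in palm oil and -0.46 ± 0.32 in control mice, and Pdk2 by 0.00 ± 0.13 and -0.25 ± 0.15. No other measured kinase of the complex passed in either diet.

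Around the secreted genes, 4 of 15 genes of FGF21 reception and signalling rose and 2 fell in palm oil mice, against 1 and 1 in control mice. Klb, which encodes the FGF21 co-receptor, fell (-0.97 in palm oil, -1.31 in control mice). Dusp6, a phosphatase induced by growth factor signalling, rose by 1.36 and by 1.21. Of 14 genes of the ANGPTL family and lipases, 3 fell and 0 rose in palm oil mice, and 4 fell and 1 rose in control mice. The lipases Lipg (-1.74 in palm oil, -1.89 in control mice) and Lipa (-0.49 and -0.67) and the lipase-activating apolipoprotein gene Apoa5 (-0.37 and -0.44) fell in both. Of 16 relatives and targets of CREB3L3, 4 rose and 1 fell in palm oil mice, and 5 rose and 1 fell in control mice. The acute-phase genes Apcs (1.79 in palm oil, 2.25 in control mice) and Crp (0.39 and 0.59) were among those that rose. Apoa5 is on this list as well and was the 1 that fell.

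Of 13 other hepatokines, 2 rose and 2 fell in palm oil mice, and 2 rose and 1 fell in control mice. Igfbp1, a binding protein of insulin-like growth factors, rose by 3.80 in palm oil and by 3.81 in control mice. Fetub rose by 0.35 and by 0.43, and Inhbe fell (-1.79 and -1.47). Of 20 other fasting regulators, 6 rose and 2 fell in palm oil mice, and 5 rose and 1 fell in control mice. Nr4a1 rose by 2.05 and by 1.86, Crem by 0.68 and by 0.81, and Cebpa fell (-0.31 and -0.56). No gene of these lists passed in a palm oil comparison or in the interaction.

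**Figure D4:**
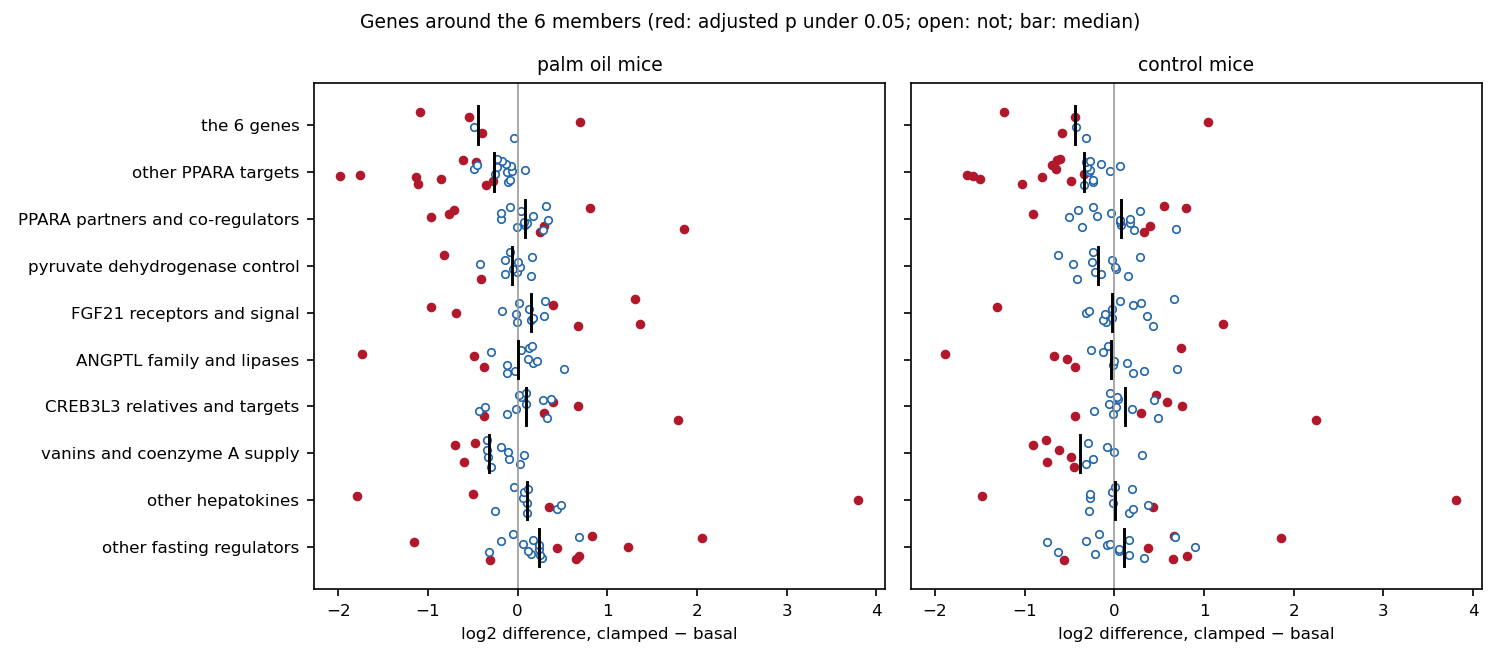
Clamped minus basal log2 difference of each measured gene of the 6 genes and of 9 lists by role (points), with the list median (bar) and genes past an adjusted p of 0.05 in red. The other PPARA targets and the vanin and coenzyme A genes lie mostly below 0 (medians -0.26 and -0.31 in palm oil, -0.34 and -0.38 in control mice), and the other lists scatter on both sides.

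Across mice of the same group, the 6 genes were compared in 15 pairs, which gives 60 relations in the 4 groups. None passed after Benjamini-Hochberg adjustment (smallest adjusted p = 0.223), and 2 had an unadjusted exact permutation p under 0.05. In palm oil clamped mice Pdk4 and Fgf21 had Pearson's r = 0.74 (exact permutation p = 0.00744, adjusted p = 0.223) and Spearman's rho = 0.83 (exact permutation p = 0.00827). Without the 2 mice farthest from the median of Pdk4, r was 0.57. In control clamped mice Pdk4 and Vnn1 had r = 0.95 (exact permutation p = 0.00575, adjusted p = 0.223) and rho = 0.86. Without the 2 mice farthest from the median of Pdk4, r was 0.38. Leaving such mice out narrows the range of Pdk4, which by itself tends to lower r. Neither drop in r therefore decides whether a relation rests on those mice. As a description, 6 of the 15 pairs kept 1 sign in all 4 groups, and no relation of theirs passed after adjustment. The share of all gene pairs that do so was not computed, and some of these r lay near 0. The count therefore does not show that the pairs vary together. The r was above 0 for Ppara with Vnn1 (0.37 to 0.58), Angptl4 with Vnn1 (0.15 to 0.47), Pdk4 with Vnn1 (0.05 to 0.95) and Pdk4 with Angptl4 (0.03 to 0.62). It was below 0 for Pdk4 with Creb3l3 (-0.66 to -0.12) and Ppara with Fgf21 (-0.37 to -0.05). The basal groups mix animals numbered 44 or higher with others. Fitted over both diets, the former differed from other basal mice by -0.48 ± 0.23 (SE) in Pdk4 and 0.20 ± 0.08 in Creb3l3. The part of that split in the basal r was not tested.

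**Figure D5:**
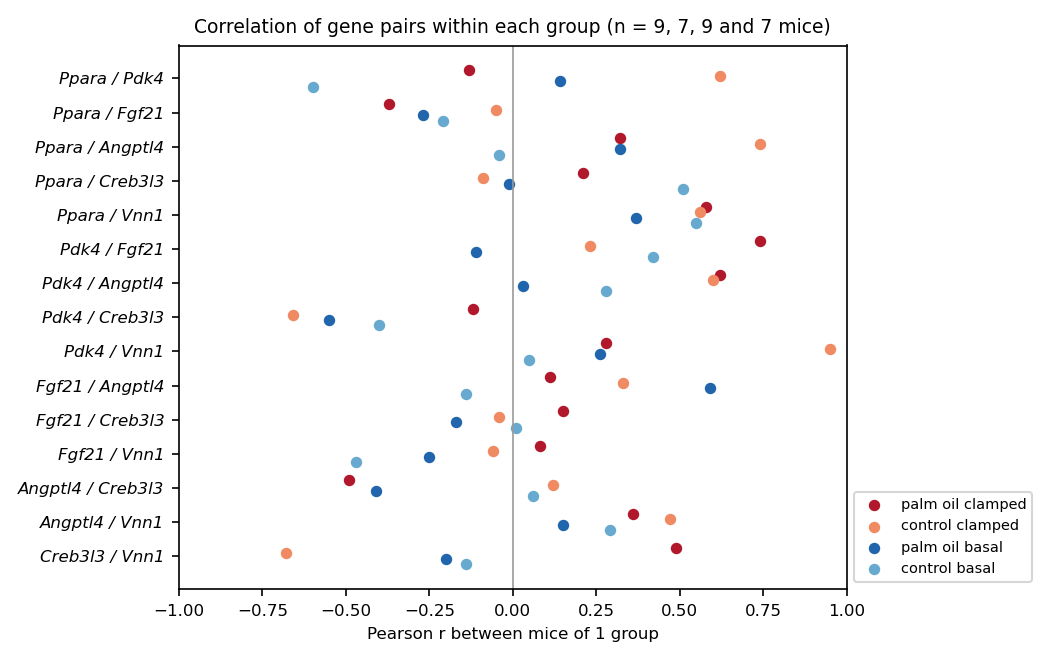
Pearson's r between 2 genes over the mice of 1 group, for the 15 pairs in rows and the 4 groups in colour. Most pairs spread on both sides of 0 between groups, and Ppara with Vnn1 stays between 0.37 and 0.58.

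Genes with a pattern like each of the 6 were sought over all 32 arrays among 10294 genes, as a description that includes the clamp difference. Ppara was most like Aldh3a2 (a fatty aldehyde dehydrogenase, r = 0.90, and 0.78 within groups), Rab43 (0.90 and 0.67) and Acot4 (0.89 and 0.62). Vnn1 was most like Aldh3a2 as well (0.89 and 0.68), then Acaa1b (a peroxisomal thiolase, 0.87 and 0.63) and Ddah1 (0.86 and 0.59). Creb3l3 was most like Septin9 (0.91 and 0.70), Pex16 (a peroxisome assembly gene, 0.91 and 0.65) and Gna12 (0.89 and 0.58). Pdk4 was most like Jmjd1c (0.81 and 0.72), Zdhhc13 (0.80 and 0.69) and Sat1 (0.79 and 0.58). Angptl4 was most like Hsdl2 (0.70 and 0.63), Elovl3 (a fatty acid elongase, 0.69 and 0.69) and Plekhf2 (0.68 and 0.63). Fgf21 was most like Rab30 (0.70 and 0.57), Mfsd2a (a lysophospholipid transporter, 0.65 and 0.62) and Taok3 (0.64 and 0.52).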

How the data were processed

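Liver RNA of 32 mice was measured on Mouse Gene 2.1 ST arrays from Affymetrix, 1 per mouse. Per the submitters' processing notes, Affymetrix Expression Console (version 1.3.0.187) and RMA made the deposited log2 values. RMA corrects background, normalizes between arrays, summarises probe sets and compresses low values. They were used as deposited, and the number of arrays limits precision. Of 41345 probe sets, 23521 had 1 gene symbol in the platform annotation, 1814 had several and 16010 were not listed there. Those with 1 symbol were kept, the brightest per gene, leaving 22180 genes. Groups came from the sample titles. limma 3.58.1 (R 4.3.3, lmFit and eBayes) fitted 4 group means (28 residual degrees of freedom), and Benjamini-Hochberg adjustment ran over all genes with a threshold of 0.05. The limma fit was tested on simulated data with independent normal noise, without differences by animal number or acinar level. Values after ± are SE or SD as stated. Exact permutation tests of group differences ran in R, and correlations with their exact permutation tests in Python. The 6 genes and the lists were chosen with earlier results of these data known. All 6 were named; of each list, up to 3 called genes with the smallest p in the control clamp, and for each of the 6 genes the 3 most correlated genes of above-median level. Alternatives covered probe set choice, brightness, scaling, fit options, blocks, acinar level and leaving out arrays. The comparison against the basal animals 44 and higher alone was added after the data had been seen.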

Additional observations from a re-analysis of the deposited data

Results flagged for a closer look

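Of 24 sets of values (6 genes in 4 groups) examined for a mouse far from the rest of its group, 2 held one, and chance alone gives about 1 in 20. Pdk4 measured 6.25 in palm oil clamped replicate 6, against 4.31 to 5.26 in the other 8 mice of that group. Vnn1 measured 5.47 in palm oil clamped replicate 4, against 6.28 to 7.04 in the others. Without replicate 6 the palm oil clamp difference of Pdk4 no longer passed, as given above.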

How the results depend on the processing

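The number of genes called stayed within 1.5 times of 4 of 6 in each clamp comparison and at 0 in the others, except as follows. In control mice it was 2 without the 7 basal arrays of animals 44 and higher and 1 without the arrays over 6 units of acinar markers, which leaves fewer arrays. In palm oil mice the acinar setting left 2. Over all genes, 1940 were called in the control clamp, 1026 without the 7 arrays and 993 without those over the acinar limit, and the palm oil clamp had 1678, against 736 without those arrays. For palm oil minus control, 4 genes were called within the basal animals 44 and higher and 1 in basal mice without the acinar arrays, none of them among the 6. Same-numbered mice were not treated as pairs, since in no comparison did every pair correlate over 0.1. Of 7 pairs 5 did in palm oil and control basal mice (-0.17 to 0.29) and 1 in palm oil and control clamped mice, and across the clamp 3 of 9 did in palm oil and 0 of 7 in control mice. This rule cannot exclude pairing. In basal mice of both diets, replicates 1 to 3 were numbered under 44 and replicate 7 at least 44. The part of that split in the basal correlations was not tested. The replicate number as a block ended only the Pdk4 call in palm oil mice (0.69, limma adjusted p = 0.0689), with 1629 genes called in palm oil and 1923 in control mice. Pdk4 in palm oil mice was also lost with array weights (0.59, limma adjusted p = 0.0670) and with the compared groups alone (0.69, limma adjusted p = 0.0546). Differences near 0 changed sign in some settings. In basal mice, palm oil minus control, Angptl4 was -0.01 after repeated quantile normalization, 0.00 with the animals 44 and higher as a block and -0.21 within them, Creb3l3 was 0.03 and Vnn1 -0.04 within them. Angptl4 in the palm oil clamp was 0.00 with 1 median for all arrays and 0.13 against the animals 44 and higher alone. The interaction of Fgf21 was 0.22 without and 0.03 with those animals as a block, and that of Vnn1 -0.10 without the acinar arrays. The causes were not tested. Leaving out single mice gave -0.06 to 0.05 for Angptl4 and -0.03 to 0.19 for Vnn1 (palm oil, basal), -0.09 to 0.03 for Ppara and -0.05 to 0.19 for Pdk4 (palm oil, clamped), -0.10 to 0.01 for Angptl4 (palm oil clamp), and -0.22 to 0.10 for Fgf21 and -0.04 to 0.26 for Vnn1 (interaction).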
